A study of Mus musculus with 3 samples.

Results

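The genes described here are 10 genes of the NRF2 antioxidant response: Nfe2l2, Keap1, Gclc, Gclm, Slc7a11, Gsr, Txnrd1, Srxn1, Nqo1 and Hmox1. They comprise the regulators Nfe2l2 and Keap1, genes of the glutathione and thioredoxin systems, and Nqo1 and Hmox1 of quinone and haem metabolism. They were selected by name with their signals on the 3 arrays, the AR7 differences included, already known, and all 10 of them, among 20660 named genes, were found on 12 of the 55681 probes of the array. Their levels are therefore given as a description, with no test. The arrays hold RNA of NIH3T3 cells, a mouse fibroblast line, labelled WT and grown to confluency in medium with serum. Cells were collected 24 h after treatment with 20 μM AR7, a compound that activates chaperone-mediated autophagy (CMA) through the retinoic acid receptor alpha (RARα), or with 20 μM BMS614, a selective RARα antagonist, or after no treatment (None). There was 1 array per condition, and hence no replicate to set a difference against. Both differences from None share the None array. Both compounds were dissolved in DMSO, and the labels do not say that the None cells received DMSO, so that compound and solvent cannot be told apart in a comparison with None. The comparison of AR7 with BMS614, given at the same dose and time, takes no difference from the None array, which enters only through the shared normalization and the filter on background.

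NRF2, the product of Nfe2l2, is a transcription factor that KEAP1 holds in the cytosol and passes to the proteasome. Electrophiles and oxidants modify cysteines of KEAP1, NRF2 then accumulates, and with small MAF proteins it binds antioxidant response elements near genes of glutathione synthesis, thioredoxin reduction, quinone detoxification and haem breakdown. This control acts mainly on the protein, and its output is usually read from the mRNA of the target genes.

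Values are log2 signals after RMA background correction and quantile normalization over the 3 arrays. A probe was read as measured where the scanner software marked it well above background on all 3 arrays, which held for 11 probes of 12 and 9 genes of 10. Slc7a11 was the exception. Each of the 12 probes has 1 spot on an array, and none of these spots was saturated or marked as an outlier. The error given beside a difference is the SD of the same difference over repeated spots of one probe at that signal level, taken from 173 probes printed 10 times. It was between 0.04 and 0.07 for the measured genes and holds the error of spots only, not that of cultures. The None array was the dimmest, with 55.4% of probes well above background against 61.3% with AR7 and 61.9% with BMS614. All 8 fibroblast markers were well above background on every array, with a summed linear signal of 786519 on the None array, 787130 with AR7 and 822637 with BMS614, although Col3a1 lay between 5.26 and 5.59 on the log2 scale. Of 5 epithelial markers, 2 were measured (Cdh1 and Krt8), with summed signals of 265, 213 and 191 on the None, AR7 and BMS614 arrays, and Epcam, Krt18 and Krt19 were not. Of 6 leukocyte and endothelial markers, 3 were well above background on the None array, 5 with AR7 and 4 with BMS614. The 3 that passed on every array were measured, with summed signals of 26184, 27344 and 21751 that came mostly from 1 bright Itgam probe, whose other 2 probes were dim, and the defining markers Ptprc and Cdh5 were dim, Ptprc passing background with AR7 and BMS614 and Cdh5 with AR7. The part of such cells in the results was not tested.

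**Figure D1:**
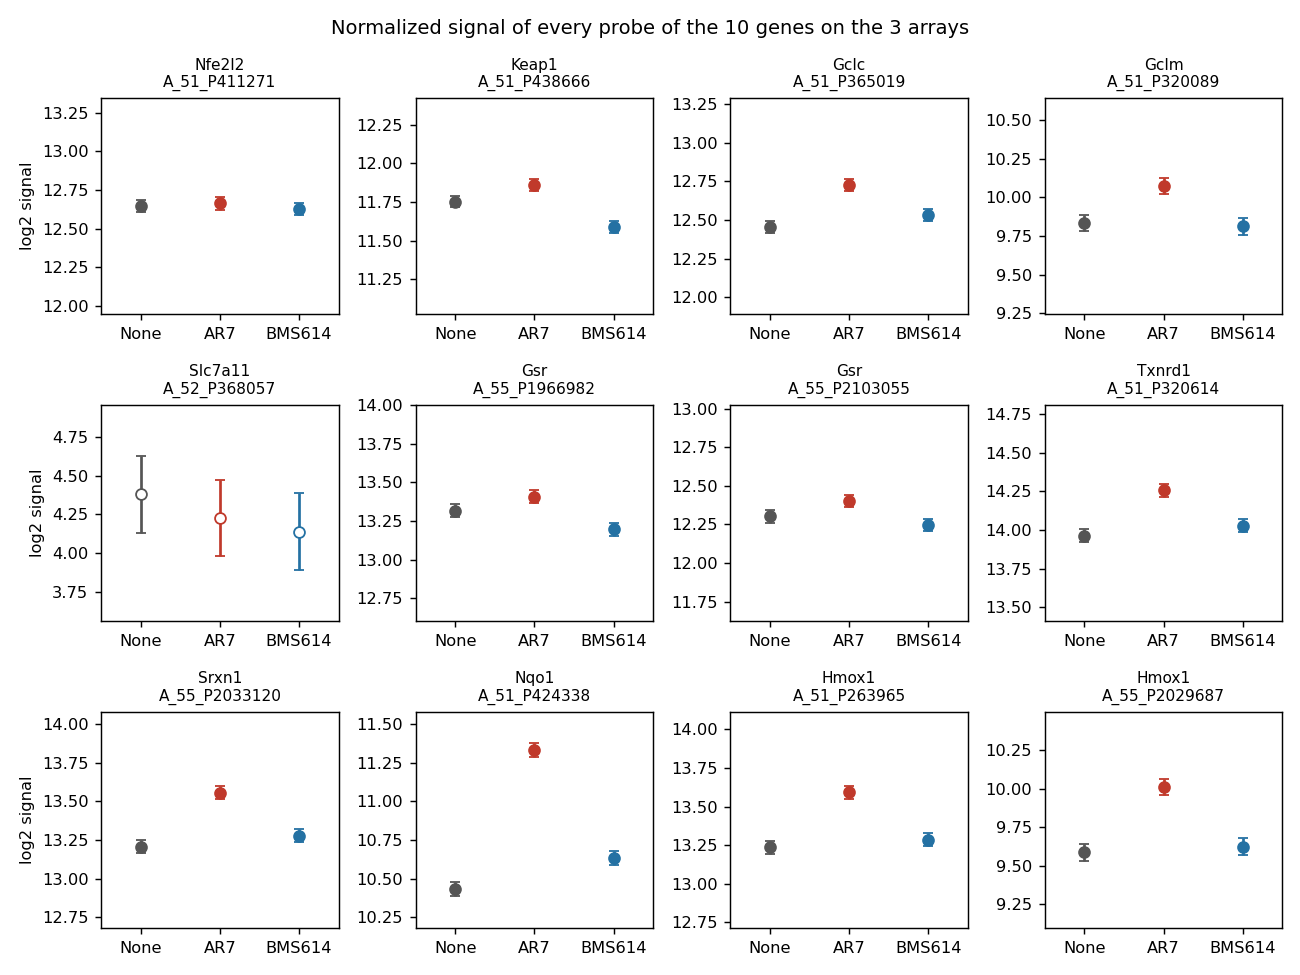
Normalized log2 signal (vertical axes, each spanning the same range) of the 12 probes of the 10 genes on the None, AR7 and BMS614 arrays. Bars are the SD of repeated spots for 1 array and open circles mark a probe not well above background; the AR7 array is the highest for 11 probes, and Slc7a11 is the exception.

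Of the regulators, Nfe2l2 differed little between the arrays, while Keap1 was lowest with BMS614 and highest with AR7. As in all results on this bulk RNA, fewer cells that express a gene and less RNA per cell cannot be told apart. Nfe2l2, which encodes NRF2, read 12.64 on the None array, 12.66 with AR7 and 12.63 with BMS614. The 3 values lie within the error of spots, with AR7 higher than None by 0.02 ± 0.06 (SD of repeated spots) and BMS614 different from None by -0.02 ± 0.06. The sign of the AR7 difference depended on the processing, at -0.03 with the processed signal and -0.01 in the deposited table. Keap1, which encodes the adaptor that targets NRF2 for degradation, read 11.75 on the None array, 11.86 with AR7 and 11.59 with BMS614. The order thus ran from BMS614 over None to AR7, and the distance between the 2 compounds, 0.27 ± 0.04, was larger than that of either compound from None (0.11 ± 0.05 for AR7 and -0.17 ± 0.05 for BMS614). With spike-in scaling not centred, given below, Keap1 was instead higher with BMS614 than None.

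Both subunits of glutamate-cysteine ligase, the rate-limiting enzyme of glutathione synthesis, were higher with AR7. Gclc, the catalytic subunit, read 12.45 on the None array, 12.72 with AR7 and 12.53 with BMS614. AR7 was higher than None by 0.27 ± 0.06, or 1.21-fold, and higher than BMS614 by 0.19 ± 0.04, while BMS614 was within 2 SD of None (0.08 ± 0.06). Gclm, the modifier subunit, read 9.83 on the None array, 10.07 with AR7 and 9.81 with BMS614. Here AR7 stood 1.18-fold over None (0.24 ± 0.07) and 1.20-fold over BMS614 (0.26 ± 0.07), while BMS614 and None were within the error of spots (-0.02 ± 0.06). The 2 subunits thus lay above None with AR7 by 4.79 and 3.24 times the SD of repeated spots.

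Gsr, the reductase that returns oxidized glutathione to its reduced form, was within 2 SD of None with AR7. Its brighter probe read 13.32 on the None array, 13.41 with AR7 and 13.20 with BMS614. Its other probe read 12.30, 12.40 and 12.25 on the same arrays. The AR7 differences of 0.09 ± 0.06 and 0.10 ± 0.06 were both under 2 SD, whereas AR7 exceeded BMS614 on both probes (by 0.21 ± 0.05 and 0.16 ± 0.04). The last gene of this group, Slc7a11, is the cystine transporter that supplies cysteine for glutathione. Its 1 probe did not rise well above background anywhere, with a scanner intensity of 126.5 without additions, 141 with AR7 and 143 with BMS614, and no fold is given for it. A difference in this gene was not detectable at this signal.

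In the thioredoxin branch, Txnrd1 and Srxn1 were both higher with AR7. Txnrd1, the cytosolic thioredoxin reductase, read 13.96 on the None array, 14.26 with AR7 and 14.03 with BMS614. AR7 exceeded None by 0.29 ± 0.06 (1.23-fold) and BMS614 by 0.23 ± 0.05, with BMS614 at 0.06 ± 0.04 from None. Srxn1, the sulfiredoxin that repairs overoxidized peroxiredoxins, read 13.21 on the None array, 13.56 with AR7 and 13.28 with BMS614. AR7 exceeded None by 0.35 ± 0.06 (1.27-fold) and BMS614 by 0.28 ± 0.05, with BMS614 at 0.07 ± 0.04 from None. For both genes the None and BMS614 values lay within 2 SD of each other and the AR7 value stood apart.

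Promoter windows of RefSeq (GRCm38.p6), from 250 bases before to 50 bases after an annotated start, were held for 7 of the 10 genes in 9 windows. Gclc, Gsr and Hmox1 had none. The windows were searched on both strands for the core of the antioxidant response element, TGACNNNGC, and for the AP-1 motif TGACTCA. The core was found in 4 of the 9 windows, those of Nfe2l2, Srxn1, Gclm and 1 of 3 of Txnrd1, and it is held by 12.4% of all 32851 windows of this length. The AP-1 motif was found only in the Srxn1 window, at 2 places, and in 5.20% of all windows. The one that starts 45 bases before the start is part of TGAGTCAGC, which matches TGANTCAGC, an AP-1 type motif that NRF2 with small MAF proteins also binds. It was chosen after the windows were read, can overlap both other motifs, and is held by 1.19% of all windows. No window of Nqo1, Keap1 or Slc7a11 holds any of these letters. The windows of the genes that were higher with AR7 and that hold a match are shown 5′ to 3′ on the strand of the gene, with matches to TGACNNNGC or TGANTCAGC in capitals. They are Srxn1 (chr2:152105274-152105573, plus strand), with matches that start 45 bases before and at base 29 after the start, Gclm (chr3:122245307-122245606, plus strand), with 1 match that starts 134 bases before it, and Txnrd1 (chr10:82858956-82859255, plus strand), with 1 match 92 bases before it. A match is a description of letters and not a measured site.
Srxn1: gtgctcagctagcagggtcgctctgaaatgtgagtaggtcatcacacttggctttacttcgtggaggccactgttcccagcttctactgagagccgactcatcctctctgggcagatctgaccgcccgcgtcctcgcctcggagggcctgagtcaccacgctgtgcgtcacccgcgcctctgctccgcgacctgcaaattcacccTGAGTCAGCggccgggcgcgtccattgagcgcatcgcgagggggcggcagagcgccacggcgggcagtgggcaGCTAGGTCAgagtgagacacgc
Gclm: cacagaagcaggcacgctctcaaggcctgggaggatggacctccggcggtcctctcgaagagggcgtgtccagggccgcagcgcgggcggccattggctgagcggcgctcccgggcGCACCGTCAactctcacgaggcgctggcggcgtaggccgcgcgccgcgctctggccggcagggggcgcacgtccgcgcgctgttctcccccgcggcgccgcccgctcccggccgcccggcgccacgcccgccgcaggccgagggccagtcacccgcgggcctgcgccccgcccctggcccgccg
Txnrd1: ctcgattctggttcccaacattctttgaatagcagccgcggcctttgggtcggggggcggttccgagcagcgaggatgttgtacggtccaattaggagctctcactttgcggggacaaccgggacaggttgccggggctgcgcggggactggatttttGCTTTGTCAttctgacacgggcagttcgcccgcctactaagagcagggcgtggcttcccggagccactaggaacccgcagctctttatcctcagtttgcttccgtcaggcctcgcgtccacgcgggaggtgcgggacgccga

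Nqo1 and Hmox1, the enzymes of quinone and haem metabolism, were both higher with AR7. Nqo1 had the largest difference of the measured genes under every processing, and the brighter Hmox1 probe (0.36) and Srxn1 (0.35) were within the error of spots of each other, with Srxn1 above Hmox1 in the deposited table. Nqo1, the quinone reductase widely used as an index of NRF2 activity, read 10.43 on the None array, 11.33 with AR7 and 10.63 with BMS614. Before normalization its spot read 1300 on the None array, 2626 with AR7 and 1976 with BMS614, against 75th percentiles of 692, 780.5 and 909 for the 3 arrays. After normalization AR7 was 1.86-fold over None (0.90 ± 0.07) and 1.62-fold over BMS614 (0.70 ± 0.05). The BMS614 value was also above that of None, 1.15-fold (0.20 ± 0.07), so that the 3 arrays were apart by more than 2 SD of repeated spots for this gene.

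Hmox1, which opens the haem ring and releases iron, has 2 probes. The brighter one read 13.24 on the None array, 13.59 with AR7 and 13.28 with BMS614. The dimmer one read 9.59, 10.01 and 9.62 on the same arrays. The 2 probes put AR7 over None by 0.36 ± 0.06 and 0.42 ± 0.07 (1.28-fold and 1.34-fold), and BMS614 over None by 0.05 ± 0.04 and 0.04 ± 0.06. The AR7 value thus stood apart on both probes, while BMS614 and None differed by less than 2 SD of repeated spots.

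**Figure D2:**
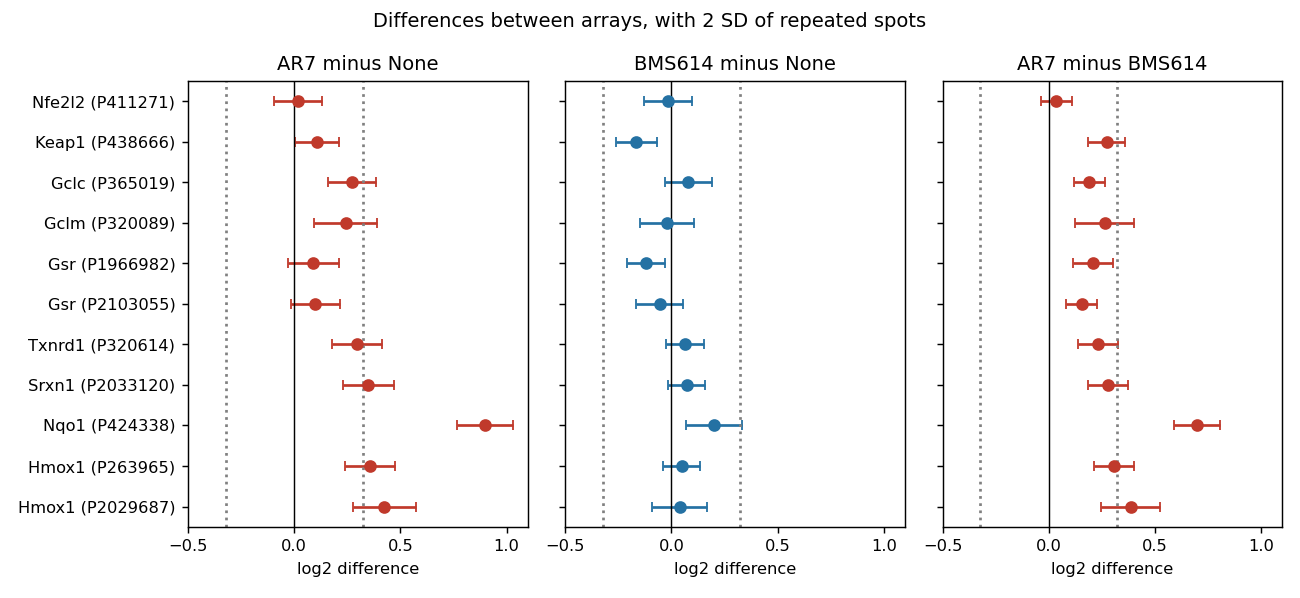
Log2 differences (horizontal axes) between the arrays for the 11 measured probes, named by gene with the end of the probe name. Bars are 2 SD of repeated spots and dotted lines mark 25% higher or 20% lower; with AR7 against None, Nqo1 lies at 0.90 and the other probes between 0.02 and 0.42, while with BMS614 against None all probes lie between -0.17 and 0.20.

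Over the 9 measured genes, each by its brightest probe, the median log2 difference was 0.27 between AR7 and None (1.21-fold), 0.05 between BMS614 and None (1.03-fold) and 0.26 between AR7 and BMS614 (1.20-fold). Without Nqo1 the first was 0.26. Over all 13823 named genes well above background on the 3 arrays, the same medians were -0.0054, -0.0023 and 0. AR7 was 25% or more over None for 3 of the 9 genes (Srxn1, Nqo1 and Hmox1), against 4.07% of all named genes and 1.1% of the 10072 whose log2 signal averaged 8 or more, a range that holds all 9. At 1.5-fold it was 1 of the 9, Nqo1, against 0.919%, and at 2-fold none, against 0.13%. It was past 2 SD of repeated spots for 7 of the 9, against 9.36% of all named genes, with Nfe2l2 and Gsr under it. Since the genes were chosen with this contrast known, nothing is read from these counts.

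With BMS614, none of the 9 genes was 25% or more over None, and 4.54% of all named genes did. Past 2 SD, Nqo1 was higher, as were 12.8% of named genes, and Keap1 and Gsr were lower, as were 12.6%. For Gsr this held on the brighter probe (-0.12 ± 0.04) and not on the other (-0.06 ± 0.06). Against BMS614, AR7 was higher by 2 SD for 8 of the 9 genes, all but Nfe2l2, and 13.7% of named genes met that rule. Nqo1 alone was 25% or more higher (4.09% of named genes), and none was 2-fold higher (0.109%). The AR7 array was the highest of the 3 for all 9 genes and for 30.5% of all named genes.

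By the AR7 difference from None, Nqo1 ranked 1 of the 10072 brighter genes, Hmox1 75, Srxn1 81, Txnrd1 152, Gclc 189 and Gclm 260. Keap1 ranked 1459, Gsr 1811 and Nfe2l2 4122. The ranks with BMS614 began at 584 for Nqo1 and ran to 9255 for Keap1. The 6 enzymes other than Gsr lay in the top 3% of brighter genes with AR7, Gclm lowest at 2.58%, and the 2 regulators and Gsr did not. Among all 13823 named genes well above background, dim ones included, Nqo1 ranked 29, Hmox1 459 and Gclm 914. Since the genes were chosen with this contrast known, nothing is read from the ranks.

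**Figure D3:**
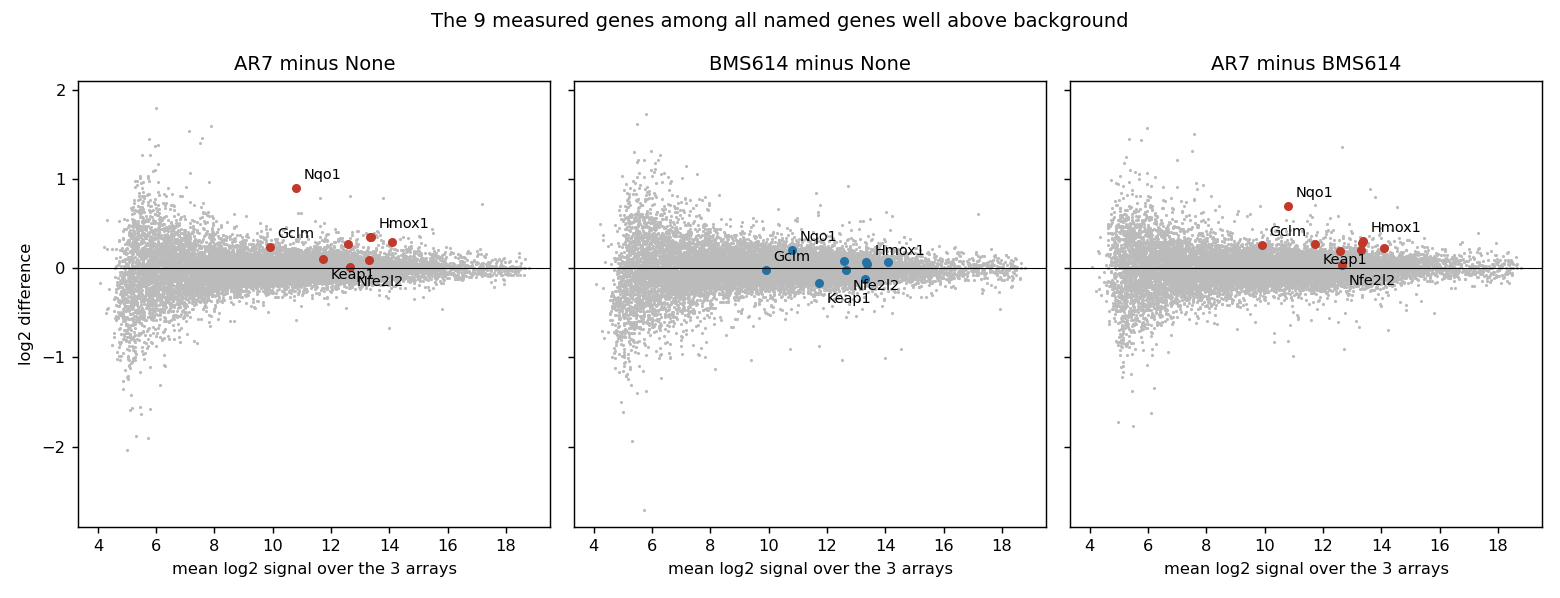
Log2 difference (vertical axis) against mean log2 signal over the 3 arrays (horizontal axis) for 13823 named genes (grey) and the 9 measured genes (coloured, 5 of them named). The spread of the grey points narrows with signal; Nqo1 lies at 0.90 with AR7 against None and at 0.20 with BMS614 against None.

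The comparison with BMS614 rests on the scaling of the arrays. Before normalization, 6 of the 11 measured probes were brighter on the AR7 array than on the BMS614 array, with a median ratio of 1.00, while the 75th percentile of all spots on the AR7 array was 0.859 times that on the BMS614 array. Scaling on the spike-in controls moved the median of all genes by 0.14 for AR7 against None, 0.31 for BMS614 against None and -0.17 for AR7 against BMS614. Relative to those medians, the 9 genes had medians of 0.26, 0.04 and 0.26. Once centred, spike-in scaling differs from RMA background with 75th percentile scaling only by a constant per comparison. The centred medians therefore hold no information from the spike-in controls. Not centred, the medians of the 9 genes were 0.40, 0.34 and 0.095, and AR7 exceeded BMS614 for 8 of 9 genes. This reading was added after seeing the data. On that scale all 9 genes were higher with BMS614 than None, so that Keap1 and Gsr were lower with BMS614 only relative to the other genes of the array.

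Other genes of the pathway were read from lists that hold none of the 10. Among 25 measured genes of 27 other NRF2 targets, the median difference of AR7 from None was 0.13, 10 genes were 25% or more higher, against 4.07% of named genes, and none was that much lower, against 4.59%. Aldh3a1, an aldehyde dehydrogenase, read 13.52 on the None array, 14.30 with AR7 and 13.51 with BMS614, and its other probe put AR7 1.28 over None. Gsta4, a glutathione S-transferase printed 10 times, read 10.73, 11.36 and 10.83 on the None, AR7 and BMS614 arrays. Abcc1, an exporter of glutathione conjugates, was higher with both compounds, by 0.42 with AR7 and 0.30 with BMS614. Gsta2 differed most under the reported processing, by 1.37 with AR7, on a dim probe with an SD of 0.35 between repeated spots. Near-identical copies of this gene may share its signal. Its AR7 difference ran from 0.63 to 1.46 over the 7 ways of processing, and that of Aldh3a1 from 0.74 to 1.03. With BMS614, 2 of the 25 genes were 25% or more higher, Abcc4 (0.46) and Cbr1 (0.40), against 4.54% of named genes. The dim gene Ugt1a6a was the 1 that was that much lower, by -0.60 with BMS614 and -0.10 with AR7 (5.55% of named genes were lower to that degree with BMS614). Its AR7 difference changed sign with the processing, up to 0.05. With normexp background correction, no gene of the list was lower to that degree with BMS614.

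Of the 10 genes that were 25% or more higher with AR7, the others were Pgd (0.42), a source of NADPH, the transferases Gstm1 (0.37) and Gsta3 (0.39, within 2 SD of repeated spots on a dim probe), the inhibitor of growth Osgin1 (0.39), and the carbonyl reductases Cbr3 (0.35) and Cbr1 (0.32), all given as the difference from None. Over the 7 ways of processing Gsta3 ranged from 0.13 to 0.48. Other enzymes that supply NADPH were nearer to None, with G6pdx at 0.06, Me1 at 0.10 and Idh1 at -0.04, or up to 0.03 with other processing. Taldo1 and Tkt, of the non-oxidative pentose phosphate branch, were at 0.12 and -0.01. The count of 10 lay between 6 and 10 over the 7 ways of processing the arrays, and the median between 0.09 and 0.13.

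All 11 genes of haem and iron handling were measured, with a median of 0.13 with AR7 and 0.03 with BMS614. Over the 7 ways of processing these medians ranged from 0.05 to 0.15 and from 0.0041 to 0.03. Slc40a1, which encodes the iron exporter ferroportin, read 9.30 on the None array, 9.80 with AR7 and 9.58 with BMS614. Slc48a1, a haem transporter, read 13.80, 14.29 and 13.83 on the same arrays. These were the 2 genes 25% or more higher with AR7. Blvrb, a biliverdin reductase, differed by 0.30 with AR7 and 0.14 with BMS614, and Alas1, the first enzyme of haem synthesis, by 0.20 and -0.02, although a dimmer Alas1 probe read 0.09 and 0.28. The ferritin genes Fth1 and Ftl1, which store iron, were 0.18 and 0.13 over None with AR7. A second Ftl1 probe was 0.35 over None, and over the 7 ways of processing Fth1 ranged from 0.05 to 0.18 and Ftl1 from 0.02 to 0.24. By contrast Blvra, the other biliverdin reductase, and Hmox2, the constitutive haem oxygenase, were at -0.05 and -0.07.

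Thioredoxins, peroxiredoxins and related genes, among them partners of Txnrd1 and Srxn1, had a median near None. Of 17 such genes, none was 25% higher, or lower by the same ratio, with either compound, and the median was -0.02 with each. Past 2 SD of repeated spots, 3 were higher and 1 lower with AR7, against 9.36% and 8.88% of named genes. With BMS614, 3 were higher and 2 lower, against 12.8% and 12.6%. Prdx6, a peroxiredoxin, was 0.18 over None with AR7 on its brightest probe, and 0.22 and 0.08 on its other measured probes. Its mean over 4 probes was -0.14, owing to a dim probe that was not well above background with AR7 or BMS614. Prdx1, another peroxiredoxin, was 0.17 over None with AR7 and 0.15 with BMS614, and 0.03 and 0.0030 on its other probe. Txn1, the cytosolic thioredoxin, stood at 0.13 and -0.02, and Txnip, which binds thioredoxin, at -0.18 and -0.04. In glutathione metabolism, 19 of 22 genes were measured, with a median of -0.02 with AR7 and -0.01 with BMS614. Esd, which completes the breakdown of formaldehyde bound to glutathione, was 0.44 over None with AR7 (0.46 on its other probe) and 0.10 with BMS614. It was the 1 gene 25% or more over None with AR7, a count that was 1 or 2 over the 7 ways of processing. Gpx2, a glutathione peroxidase, was the 1 gene that much lower with AR7 (-0.34), on a dim probe whose difference changed sign with the processing, up to 0.03. Oplah, which recycles oxoproline, was 0.28 over None with AR7 on a dim probe (0.14 to 0.37 over the processing), and the peroxidase Gpx7 was at -0.14. Gss, the second enzyme of glutathione synthesis, differed by 0.01 with AR7, or down to -0.02 with other processing, and by -0.08 with BMS614, and Slc3a2, the partner chain of Slc7a11, by -0.03 and -0.09.

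Among 13 measured genes of 14 that regulate or partner NRF2, none was 25% higher, or lower by the same ratio, with AR7. The median was 0.08, or down to 0.04 with other processing. Maff, a small MAF partner, was 0.26 over None with AR7 and 0.06 with BMS614. Sqstm1, the p62 protein that binds KEAP1, was 0.16 over None with AR7 and -0.14 with BMS614. Gsk3b, a kinase upstream of a second route of NRF2 degradation, was 0.15 over None with each compound on its brightest probe, but the 2 dimmer probes were at -0.12 and -0.30 with AR7 and the mean over probes at -0.09. Bach2, a repressor of the same elements, differed by -0.24 with AR7 and -0.67 with BMS614 on a dim probe. Its other probe did not pass background on the 3 arrays. Both Bach2 differences changed sign with the processing, up to 0.06 with AR7 and 0.14 with BMS614. Of 12 measured ATF4 targets, which share Slc7a11 regulation with NRF2, none was 25% higher, or lower by the same ratio, with either compound. They had a median of -0.02 with AR7 and -0.06 with BMS614. Phgdh was lowest with AR7, at -0.10, Shmt2 was at -0.08, or up to 0.0019 with other processing, and Slc7a5 and Chac1 were at 0.06 and 0.05.

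**Figure D4:**
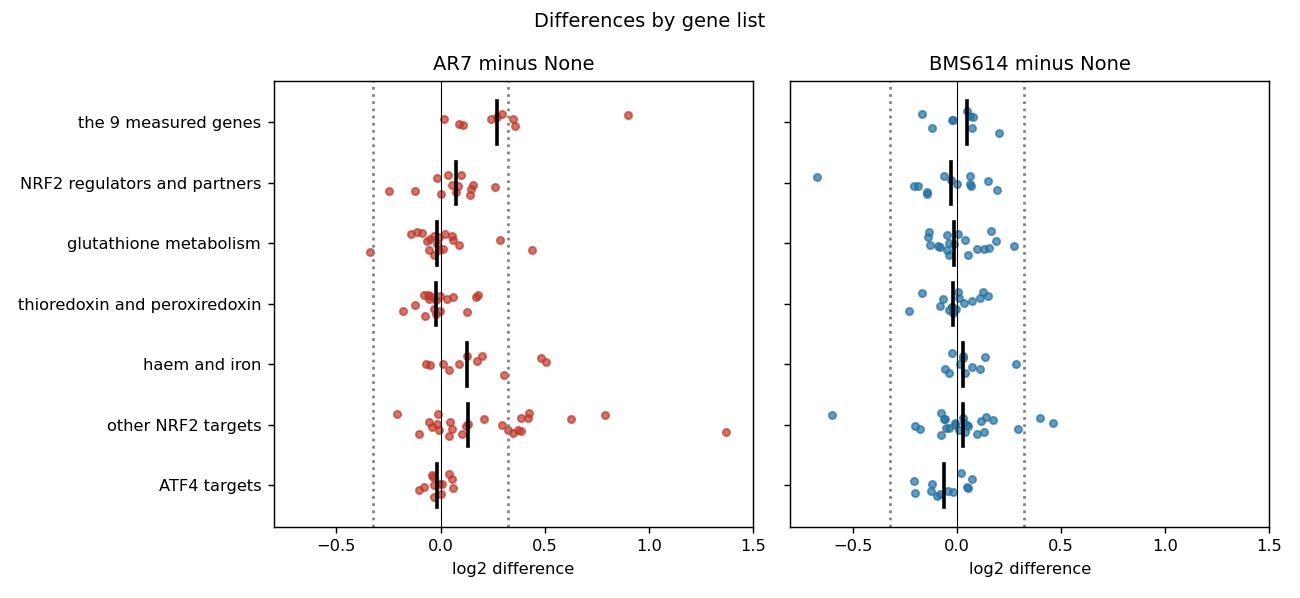
Log2 differences from None (horizontal axes) with AR7 and with BMS614 under the reported processing, 1 point for each measured gene, by gene list. Black bars are medians and dotted lines mark 25% higher or 20% lower; with AR7 the medians are 0.27 for the 9 genes, 0.13 for other NRF2 targets and for haem and iron genes, and -0.02 for the thioredoxin, glutathione metabolism and ATF4 lists.

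The 10072 brighter genes were also ranked by the excess of the AR7 array over the mean of the other arrays, over 3 arrays. This rank is by size of the excess and not by likeness to the group. The first 10 were Pigt (1.08), Nqo1 (0.80), Aldh3a1 (0.79), Raly (0.65), Ikbkg (0.62), Aox1 (0.61), Gsta4 (0.58), Arhgef33 (0.54), Anp32a (0.53) and Arl6 (0.53). One of the 10 genes described here, Nqo1, was among them, and Hmox1 ranked 56, Srxn1 71, Txnrd1 110, Gclm 129, Gclc 173, Keap1 320, Gsr 589 and Nfe2l2 3806. For Pigt and Raly part of the excess came from a low BMS614 value (-0.55 and -0.48 from None). The second probes of Arl6 and Anp32a differed from None with AR7 by -0.11 and 0.03, whereas that of Ikbkg differed by 0.53.

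**Figure D5:**
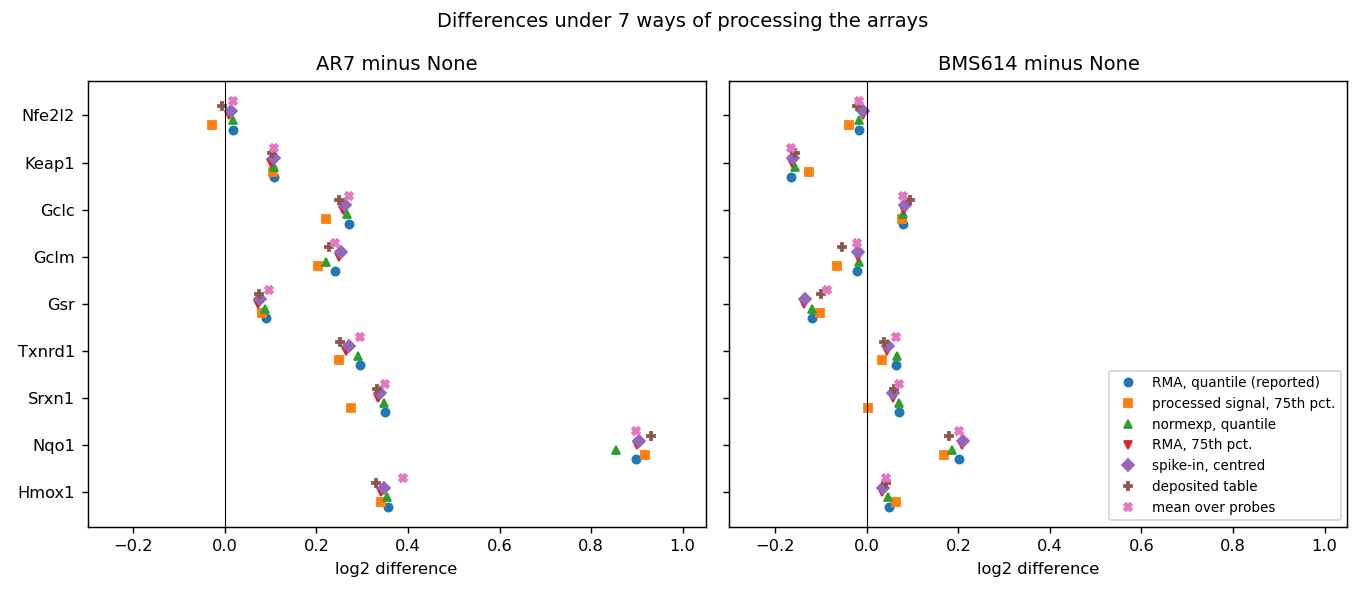
Log2 differences from None (horizontal axes) of the 9 measured genes with AR7 and with BMS614 under 7 ways of processing the arrays, shown by marker. With AR7 each gene except Nfe2l2 is above 0 under all 7, and Nqo1 lies between 0.85 and 0.93.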

How the data were processed

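The series holds 3 one-colour Agilent arrays, 1 per condition. The authors deposited, per the file headers, the intensity of each spot from the scanner software not yet normalized, together with a table of linear processed intensity, whose columns correlate at 1 with the background-subtracted intensity and have 75th percentiles between 598.8 and 599.9. The labels and methods name oligo and RMA. Here the median pixel intensity was corrected with the RMA convolution background, quantile normalized over the 3 arrays (R 4.3.3, limma 3.58.1) and taken to log2, and the rest used Python 3.11.15. Controls and outlier spots were left out. Probes were named through RefSeq accessions (assembly GRCm38.p6), which named 27235 of 55681. A gene is represented by its brightest probe. Genes and lists were chosen with earlier results of these data known. From each list, the 4 measured genes with the largest AR7 difference and those past 1.5-fold are named, and others were chosen after their values were seen. With 1 array per condition no test was made. The number of arrays limits the precision. The alternatives were 75th percentile scaling of the processed signal, normexp (offset 50) with quantile normalization, RMA background with 75th percentile scaling, spike-in scaling, the deposited table with a floor of 16, the mean over probes, other fold thresholds and no filter on dim probes. Where scaling shifted the median over all genes by more than 0.1 in any comparison (spike-in scaling and the deposited table), the differences of all 3 comparisons are relative to that median. Spike-in scaling then differs from RMA background with 75th percentile scaling only by a constant in each comparison.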

Additional observations from a re-analysis of the deposited data

How the results depend on the processing

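With differences centred as described, the median difference of the genes stayed between 0.22 and 0.27 for AR7 against None, between 0.0019 and 0.05 for BMS614 against None and between 0.23 and 0.26 for AR7 against BMS614. Spike-in scaling without centring, added after seeing the data, gave 0.40, 0.34 and 0.095. The 3 genes 25% or more higher with AR7 than None were 1 at 1.5-fold and 0 at 2-fold, and 2 with the processed signal. The 1 gene higher with AR7 than BMS614 became 0 at 2-fold and 2 with the mean over all probes, through the second Hmox1 probe. With BMS614 against None the count was 0 under each setting other than spike-in scaling without centring. Without centring the counts were 6 for AR7 against None, 5 for BMS614 against None and 1 for AR7 against BMS614, and the BMS614 differences of Keap1 and Gsr from None turned to 0.15 and 0.17. Of 60 differences of single genes recomputed for each comparison under those other settings, 59, 59 and 58 moved by less than the SD of repeated spots. Part of this count was fixed in advance. The 60 include Slc7a11, which was not measured and was set against an SD of 0.30 to 0.35. The mean over probes cannot change a gene with 1 probe, and centred spike-in scaling repeats another setting up to a constant. The count is therefore not read as a measure of robustness. The mean pixel intensity was not run, since the scanner files used here hold no such column, and normexp therefore took the median pixel intensity. No paired analysis was possible because there is 1 array a condition, and for the same reason no array could be left out. All 3 arrays lie on 1 slide, so that no slide could be set as a block. Signal over background limits Slc7a11.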
